A study of Mus musculus with 12 samples.

Results

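Stra8 and 8 further genes of germ cells entering or passing through meiosis (Rec8, Smc1b, Sycp3, Sycp1, Dmc1, Dazl, Ddx4 and Tex19.1) were followed in F9 cells, a mouse teratocarcinoma line. They were taken by symbol: every probe set that the array annotation assigns to one of these symbols alone was used, which gave 11 of the 45037 probe sets tested, and 9 of the 18193 genes. Dmc1 and Dazl each have 2 probe sets, and the brighter one stands for the gene unless the other is named. The cells were wild type (WT) or carried a knockout (KO) of Rarg, the gene of retinoic acid receptor gamma. Each line was kept for 24 h in 1 µM retinoic acid (RA) or in its ethanol vehicle. This gave the groups WT_vehicle, WT_RA, KO_vehicle and KO_RA with 3 arrays each, 12 in all, and all 4 groups were grown in the same serum-containing medium. How the knockout was made, and whether it is 1 clone, is not given in the sources used here, and KO below means arrays so labelled. The labels do not say whether replicate arrays stand for separate cultures. The p-values below cover array-to-array spread alone, with a precision set by having 3 arrays a group.

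Retinoic acid binds nuclear receptors (RARs) that sit on DNA as pairs with RXR partners, and in the gonad it is the signal that switches on Stra8, whose name stands for stimulated by retinoic acid. STRA8 acts with MEIOSIN to turn on the genes of meiotic prophase, among them those of the synaptonemal complex and the recombinase DMC1. Germ cells become able to respond through DAZL, and many germline genes are otherwise kept silent in other cells by DNA methylation and by E2F6-containing repressor complexes. Tex19.1 is among the genes silenced by promoter methylation, and its protein holds back retrotransposons in germ cells.

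Signals are deposited MAS5 intensities on a linear scale. Changes are differences of log2(signal + 16) with the standard error (SE) of a limma fit over the 4 groups, and p-values are limma's, adjusted by Benjamini-Hochberg over all 45037 probe sets, with 0.05 as the threshold. A fold on this scale understates the change of dim genes. A signal of 88.3 was taken as background, the level under which 95% of the values of 86 olfactory, vomeronasal and taste receptor probe sets fell. Hybridization times put the arrays in 3 fluidics runs of 4, each with 1 array of every group: replicate 3 arrays in run 1, replicate 1 arrays in run 2 and replicate 2 arrays in run 3. Results are therefore also given within runs or with the run as a block. The 2 chip lots were not balanced in this way. All WT_vehicle arrays and KO_vehicle replicate 3 were of lot 1, and KO_vehicle replicates 1 and 2 of lot 2. WT_RA replicate 3 and KO_RA replicate 1 were also of lot 2, and the other RA arrays of lot 1. KO_vehicle replicate 3 stood apart, with a median signal of 143 against 71.3 to 94.9 on the other 11 arrays, and its receptor probe sets reached 232 at their 95th percentile against 61.6 to 99.4 elsewhere. On the deposited scale the median change of all probe sets was -0.11 for RA in KO, -0.16 for the difference of the RA changes and 0.17 for KO against WT in vehicle. These medians were 0.14, 0.18 and -0.04 with arrays centred on their medians. The mean signal of Rarg itself was not lower in KO, with a KO minus WT difference of 0.16 (adjusted p = 0.733) in vehicle and 0.12 (adjusted p = 0.885) in RA. It is unknown here whether its probes fall in the part that was disrupted, and Rarg therefore checks neither genotype. All 10 F9 stem cell markers (Pou5f1, Sox2, Nanog and others) had a mean above background in each group.

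Stra8, which codes for the factor that starts the meiotic programme, was raised by RA in both lines. Its signal was 1513, 1723 and 2255 on the WT_vehicle arrays and 9360, 9753 and 14700 on the WT_RA arrays. On the KO_vehicle arrays the signal was 3071, 2958 and 3594, and on the KO_RA arrays 13640, 12420 and 12860. Every RA array lay above every vehicle array of either line, and the KO_vehicle arrays lay above all WT_vehicle arrays while the RA arrays of the lines overlapped.

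**Figure D1:**
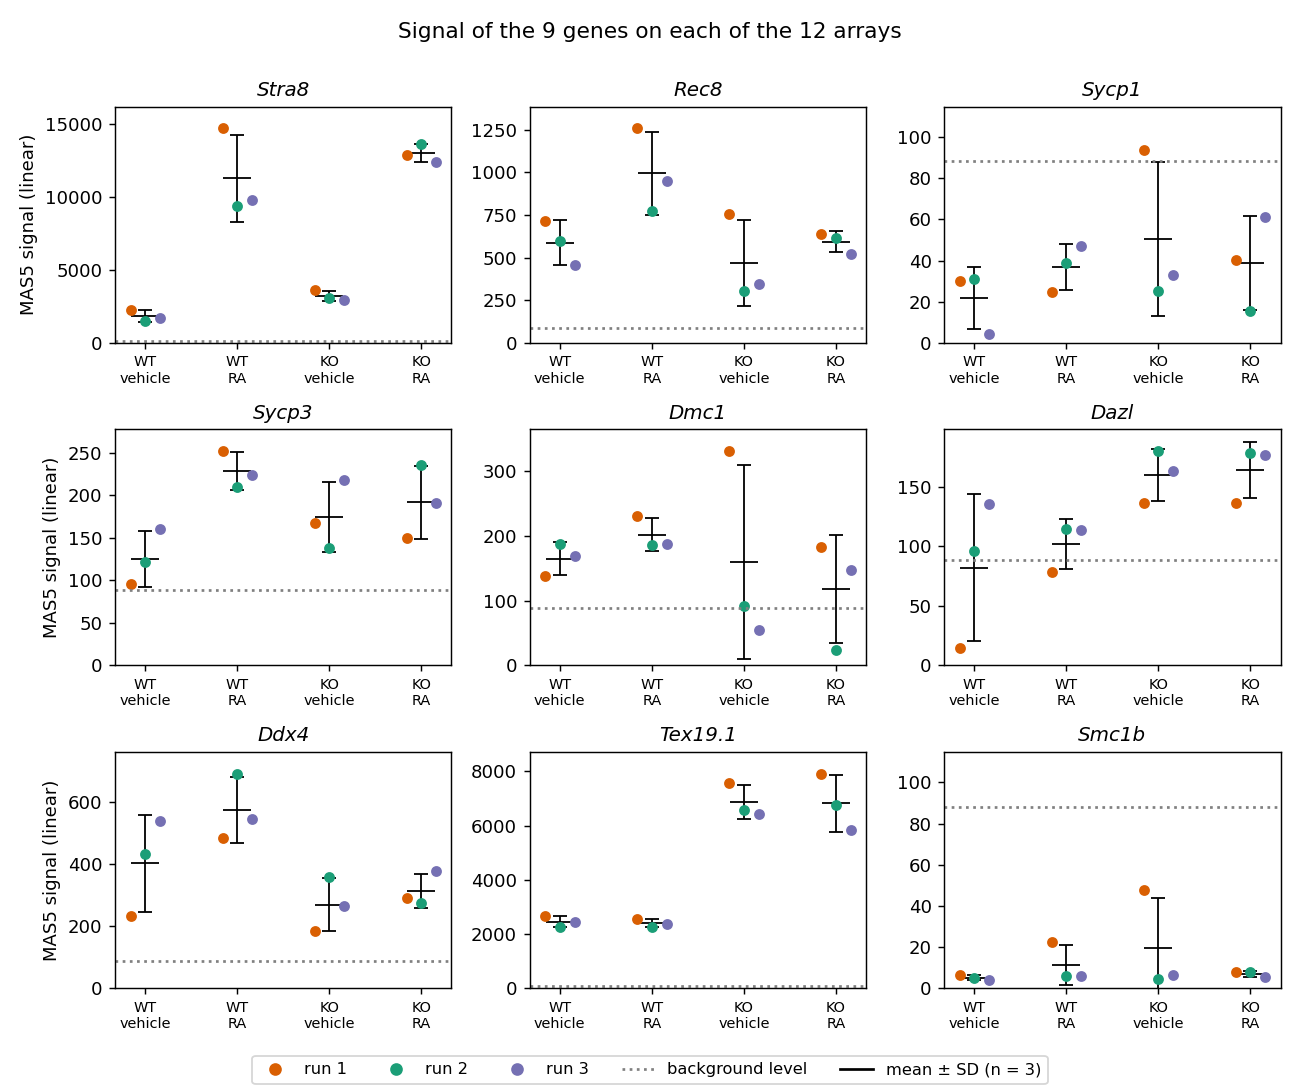
MAS5 signal (linear, vertical axis) of the 9 genes on each of the 12 arrays by group, coloured by fluidics run, with the mean and SD of 3 arrays and the background level of 88.3 as a dotted line. Stra8 sits between 9360 and 14700 on the RA arrays and between 1513 and 3594 on the vehicle arrays, while Tex19.1 separates KO (5818 to 7920) from WT (2247 to 2653).

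The Stra8 mean went from 1830 ± 382 (SD, n = 3) to 11270 ± 2977 in WT, a change of 2.60 (SE 0.179, 6.07-fold, limma adjusted p = 2.68e-06). In KO it went from 3208 ± 339 to 12970 ± 613, a change of 2.01 (SE 0.179, 4.04-fold, limma adjusted p = 4.99e-05). Both rises were called in each of the 12 fits that leave out 1 array. The rise in WT was 2.70, 2.62 and 2.49 within runs 1, 2 and 3. The rise in KO was 1.83, 2.14 and 2.06.

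The RA change of Stra8 in KO minus that in WT was -0.59 on the log2 scale, with a 95% interval from -1.12 to -0.05 before adjustment. That difference did not pass the test over all probe sets (limma adjusted p = 0.978, and 0.511 with the run as a block), although it had the same sign in the 3 runs, at -0.86, -0.47 and -0.43. Set against the median of all probe sets it was -0.43 on the deposited scale, -0.42 with centred arrays and -0.75 after quantile normalization. The 2 RA levels differed by 0.23 (95% interval -0.15 to 0.61, limma adjusted p = 0.656), with a lower KO signal in run 1 and higher ones in runs 2 and 3 (-0.19, 0.54 and 0.35).

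In vehicle, Stra8 was 0.82 higher in KO than in WT (SE 0.179, 1.76-fold, limma adjusted p = 0.0129, and 0.000113 with the run as a block). The difference was 0.67, 1.01 and 0.77 in runs 1, 2 and 3, and 0.65 relative to the median of all probe sets. The call was lost with arrays centred on their medians (0.60, adjusted p = 0.298), without the intensity trend (adjusted p = 0.128) and with the chip lot as a block (0.71, adjusted p = 0.0834). It was also lost without WT_vehicle replicate 1 (0.69, adjusted p = 0.0753), without WT_vehicle replicate 2 (0.79, adjusted p = 0.0514) and without KO_vehicle replicate 3 (0.73, adjusted p = 0.0599), the array that stood apart. Chip lot and line largely coincide in vehicle, so the fit with the lot as a block cannot fully separate them.

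The promoter of Stra8 is shown because RA raised the gene in both lines. The RefSeq window (chr6:34920698-34920997, plus strand, GRCm38.p6) runs from 250 bases before to 50 bases after an annotated start that lies inside the outer bounds of the gene. Capitals mark AGGTCA, the core motif of RAR and RXR binding, searched on both strands.
Stra8: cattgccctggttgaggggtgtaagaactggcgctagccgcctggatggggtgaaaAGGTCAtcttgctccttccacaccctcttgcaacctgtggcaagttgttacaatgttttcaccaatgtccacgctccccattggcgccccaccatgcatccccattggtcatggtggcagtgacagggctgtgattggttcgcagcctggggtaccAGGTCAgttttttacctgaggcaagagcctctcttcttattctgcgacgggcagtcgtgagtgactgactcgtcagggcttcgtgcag

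AGGTCA begins 194 and 38 bases before the annotated start inside this Stra8 window, both on the plus strand. Of 32851 RefSeq promoter windows of the same length, 16.3% held the motif at least once and 1.81% at least 2 times, overlaps between motifs allowed. The direct repeats AGGTCANAGGTCA, AGGTCANNAGGTCA and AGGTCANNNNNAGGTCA were in none of the 9 windows of the genes followed here, and in 0.0396%, 0.00913% and 0.00913% of all windows. A match is a description of letters and not a binding site.

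The genes whose pattern over the 12 arrays was most like that of Stra8 were Aqp3, a water and glycerol channel gene (Pearson r = 0.947), Rhob, a small GTPase gene (0.943), Actn2, which codes for an alpha-actinin (0.936), Tmtc1 (0.918) and Aard (0.917). Aqp3 had mean signals of 1103, 3854, 1252 and 3331 in WT_vehicle, WT_RA, KO_vehicle and KO_RA, and Rhob had 1303, 3029, 2110 and 3655. These correlations describe 12 arrays that share their runs and groups, and carry no test.

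Rec8 codes for the meiosis-specific kleisin subunit of cohesin, the ring that holds sister chromatids together. Its signal was 596, 454 and 713 in WT_vehicle, 775, 948 and 1258 in WT_RA, 303, 342 and 758 in KO_vehicle, and 616, 522 and 640 in KO_RA. All WT_RA arrays lay above the WT_vehicle and KO_RA arrays, and KO_vehicle spread widely, with replicate 3 above both others.

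The Rec8 mean was 588 ± 130 (SD, n = 3) in WT_vehicle and 994 ± 245 in WT_RA, a difference of 0.74 (SE 0.288, limma adjusted p = 0.572, and 0.0486 in the fit blocked by run; 0.81, 0.37 and 1.04 in runs 1, 2 and 3). KO_RA was 0.71 below WT_RA (limma adjusted p = 0.225, and 0.0197 with the block), at -0.96, -0.32 and -0.84 in the 3 runs. Rec8 passed the threshold in these comparisons with the run as a block and not without it. In KO the RA difference was 0.44 (limma adjusted p = 0.896), with -0.24 in the run that holds KO_vehicle replicate 3 and 0.99 and 0.59 in the others. KO_vehicle was 0.41 below WT_vehicle (limma adjusted p = 0.523), and fell by 0.68 against it when KO_vehicle replicate 3 was left out of the blocked fit (adjusted p = 0.0294).

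Sycp3, a lateral element protein gene of the synaptonemal complex, was dim but above background on all 12 arrays. It gave 121, 161 and 95.2 in WT_vehicle, 209, 224 and 252 in WT_RA, 138, 218 and 168 in KO_vehicle, and 235, 191 and 150 in KO_RA. The WT groups did not overlap and the KO groups did. The WT difference of 0.81 did not pass the test (SE 0.310, limma adjusted p = 0.551, and 0.243 in the fit blocked by run), and that in KO was 0.13 (95% interval -0.53 to 0.78).

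Sycp1, the transverse filament gene of the same complex, and Smc1b, the gene of a meiotic cohesin subunit, were not measured reliably. Sycp1 was below background on 11 arrays, between 4.38 and 61.3, and gave 93.7 on KO_vehicle replicate 3. Smc1b lay between 3.88 and 47.6, its highest value again on that array. Every group mean of both genes was below background, so their differences have no measured size.

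Dmc1, the gene of the recombinase that pairs homologous chromosomes, has probe sets that followed each other poorly (r = 0.36 over 12 arrays). The brighter one gave 187, 169 and 138 in WT_vehicle and 186, 188 and 231 in WT_RA, then 91.8, 55.3 and 331 in KO_vehicle and 23.6, 148 and 183 in KO_RA. The other gave 160, 190 and 120 in WT_vehicle, 276, 270 and 234 in WT_RA, 110, 6.55 and 52.5 in KO_vehicle, and 137, 157 and 192 in KO_RA. On the second the KO_vehicle arrays lay below all others, 2 of them below background, and on the first the highest of all 12 values was KO_vehicle replicate 3. KO minus WT for Dmc1 in vehicle was -0.38 (limma adjusted p = 0.800) on the first and -1.55 (limma adjusted p = 0.0849, and 0.0282 when blocked by run) on the second. In runs 1, 2 and 3 the second gave -0.98, -0.49 and -3.19. Without KO_vehicle replicate 1 it passed unblocked (limma adjusted p = 0.0193), with both remaining KO_vehicle arrays below background and WT_vehicle at least 1.63-fold higher. Only the second Dmc1 probe set passed in any of these fits. The RA minus vehicle difference on the first was 0.27 in WT and -0.35 in KO (limma adjusted p = 0.994 and 0.967). On the second it was 0.69 in WT and 1.61 in KO (limma adjusted p = 0.911 and 0.557), with RA higher without overlap in both lines.

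The windows of Rec8 and Sycp3 are shown as the pair of chromosome-axis genes measured above background. They are chr14:55617916-55618215, plus strand, and chr10:88459337-88459636, plus strand, both from RefSeq GRCm38.p6. The annotated start used for Rec8 lies inside the outer bounds of the gene, as for Stra8, and that of Sycp3 at the outer end. Capitals mark AGGTCA, the E-box CACGTG, a core bound by basic helix-loop-helix factors, and TCCCGC or its reverse complement GCGGGA, an E2F-type core, on both strands.
Rec8: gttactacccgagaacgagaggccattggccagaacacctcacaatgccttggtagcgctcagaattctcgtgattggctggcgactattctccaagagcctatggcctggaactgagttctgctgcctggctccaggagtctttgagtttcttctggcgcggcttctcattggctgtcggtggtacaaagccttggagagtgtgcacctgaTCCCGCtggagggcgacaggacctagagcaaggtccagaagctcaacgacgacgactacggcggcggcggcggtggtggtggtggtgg
Sycp3: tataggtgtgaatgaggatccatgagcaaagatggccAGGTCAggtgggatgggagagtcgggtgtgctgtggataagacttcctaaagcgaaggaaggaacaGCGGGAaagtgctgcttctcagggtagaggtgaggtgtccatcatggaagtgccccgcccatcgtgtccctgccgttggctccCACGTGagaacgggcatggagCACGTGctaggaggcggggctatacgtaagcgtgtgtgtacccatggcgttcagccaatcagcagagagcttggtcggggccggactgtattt

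The Rec8 window holds 1 E2F-type core, 38 bases before the start, and no E-box of this form. The Sycp3 window holds AGGTCA 213 bases, an E2F-type core on the minus strand 147 bases and E-boxes 64 and 43 bases before the start. Over the 9 windows, AGGTCA was in 2 (Stra8 and Sycp3), the E-box in 3 (Sycp1, Sycp3 and Ddx4) and the E2F-type core in 7, all but Stra8 and Dazl. Of all 32851 windows 7.15% held the E-box and 20.0% the E2F-type core. The 9 windows held 10 (Stra8) to 38 (Ddx4) CpG pairs, against a median of 7 over all windows.

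**Figure D2:**
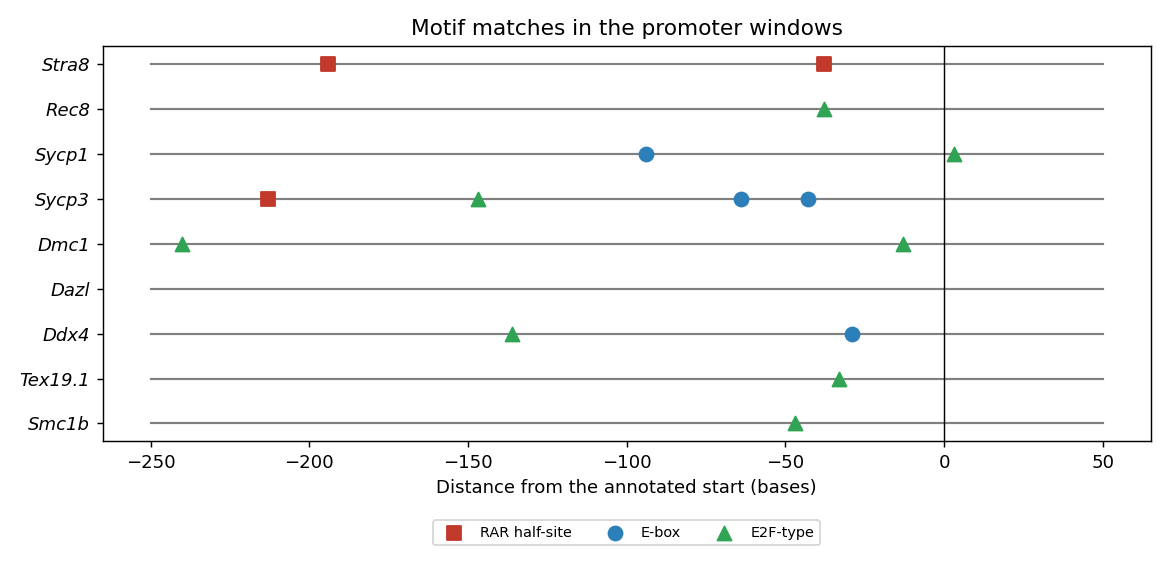
Positions (horizontal axis, bases from the annotated start) of AGGTCA (RAR), CACGTG (E-box) and TCCCGC (E2F-type) in the promoter windows of the 9 genes, both strands. Stra8 alone of the 9 has 2 copies of AGGTCA, at 194 and 38 bases before the start, and the Dazl window has no match.

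Dazl and Ddx4 code for RNA-binding proteins of germ cells, DAZL a translational regulator and DDX4 (also called mouse vasa homologue) an RNA helicase of the germ granules. Ddx4 gave 434, 540 and 234 in WT_vehicle, 693, 545 and 485 in WT_RA, 358, 266 and 185 in KO_vehicle, and 274, 377 and 292 in KO_RA. Each WT_RA array lay above each KO_RA array, and the vehicle groups overlapped. KO_RA was 0.84 below WT_RA (SE 0.301, limma adjusted p = 0.151, and 0.0186 with the run as a block), at -0.70, -1.29 and -0.51 in runs 1, 2 and 3. The RA differences of Ddx4 were 0.56 in WT (limma adjusted p = 0.826) and 0.24 in KO (limma adjusted p = 0.952).

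Dazl was close to background. Its brighter probe set gave 96.5, 135 and 14.3 in WT_vehicle, 114, 114 and 78.2 in WT_RA, 180, 163 and 136 in KO_vehicle, and 178, 177 and 137 in KO_RA. Each KO array lay above each WT array of the same treatment, and WT_vehicle replicate 3 was the lowest of the 12. The KO minus WT difference was 1.13 in vehicle (SE 0.488, limma adjusted p = 0.256, and 0.108 in the fit blocked by run) and 0.62 in RA (limma adjusted p = 0.670), so neither passed the test. In runs 1, 2 and 3 the vehicle difference was 2.33, 0.80 and 0.24. The second probe set of Dazl followed the first (r = 0.95) and gave 1.12 and 0.44.

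Tex19.1, the gene of a mammal-specific protein of germ cells and early embryonic cells, split the lines and did not move with RA. It gave 2248, 2426 and 2653 in WT_vehicle, 2247, 2384 and 2564 in WT_RA, 6581, 6422 and 7575 in KO_vehicle, and 6753, 5818 and 7920 in KO_RA. The lowest KO array lay well above the highest WT array, while the vehicle and RA arrays of each line overlapped.

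KO minus WT of Tex19.1 was 1.48 in vehicle (SE 0.143, 2.79-fold, limma adjusted p = 8.77e-06) and 1.49 in RA (SE 0.143, 2.82-fold, limma adjusted p = 6.98e-06). Both were called in all 12 fits that leave out 1 array, and in runs 1, 2 and 3 the differences were 1.51, 1.54 and 1.40 without RA and 1.62, 1.58 and 1.28 with it. Relative to the median of all probe sets they were 1.31 and 1.54, with and without centring of the arrays. The RA minus vehicle difference of Tex19.1 was -0.03 in WT (95% interval -0.33 to 0.28) and -0.01 in KO (95% interval -0.31 to 0.29). With centred arrays the sign of the latter turned (0.23, adjusted p = 0.835).

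The Tex19.1 window is shown for the line difference (chr11:121145893-121146192, plus strand, RefSeq GRCm38.p6). Capitals mark its single E2F-type core, which lies on the minus strand 33 bases before the start.
Tex19.1: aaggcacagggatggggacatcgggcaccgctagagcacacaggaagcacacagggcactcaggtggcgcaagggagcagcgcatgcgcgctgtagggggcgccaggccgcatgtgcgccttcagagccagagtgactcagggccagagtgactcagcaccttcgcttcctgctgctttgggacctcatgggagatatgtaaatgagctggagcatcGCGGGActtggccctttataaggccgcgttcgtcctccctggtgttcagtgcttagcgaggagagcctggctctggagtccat

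The genes most like Tex19.1 over the 12 arrays were Zkscan17, a zinc finger gene (r = 0.991), Psmd12, which codes for a proteasome subunit (0.988), and Fmr1nb, a testis antigen gene (0.985). The mean signals of Fmr1nb were 265 and 263 in WT without and with RA, and 3038 and 3781 in KO. Nearest to Rec8 were Cyp27a1, Fkbp1b and Card10 (r = 0.913, 0.912 and 0.903), to Sycp3 Armcx3, Pias1 and Carf (0.892, 0.854 and 0.850) and to Ddx4 AW549877, Fbxo3 and Sec22b (0.961, 0.957 and 0.947). For Dmc1 they were Pex11g, Vill and Nkx2-5 (0.932, 0.919 and 0.907), and for Dazl Luc7l3, Zfp955a and Lig4 (0.990, 0.974 and 0.973). Among the 9 genes themselves, r was highest for Stra8 with Sycp3 (0.68) and lowest for Ddx4 with Tex19.1 (-0.71).

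**Figure D3:**
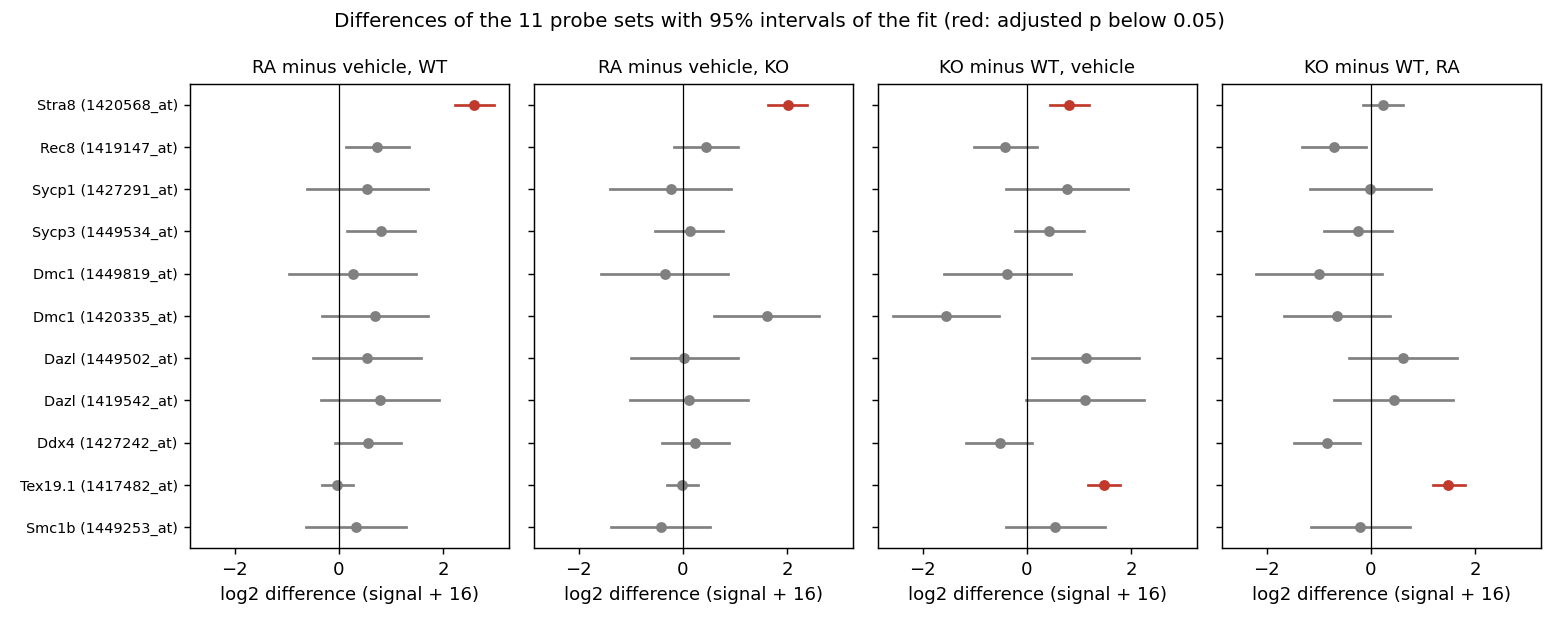
Differences of log2(signal + 16) (horizontal axis) of the 11 probe sets in 4 comparisons, with the 95% intervals of the limma fit over 3 arrays a group, and adjusted p below 0.05 in red. Stra8 is red for RA in both lines and for KO against WT in vehicle, Tex19.1 is red for KO against WT in both treatments, and the other 9 probe sets are grey throughout.

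Counted together, the RA change was called for 1 of the 11 probe sets in WT (Stra8), where 0.469% of all probe sets were called, and 1 of 11 in KO (Stra8 again), where 0.0799% were. With the run as a block these counts were 2 (with Rec8) and 1, at 2.11% and 0.302% of all probe sets. The median RA difference of the 9 genes was 0.55 in WT and 0.03 in KO, against 0.05 and -0.05 over all genes, but the median gene in WT was Sycp1, which was below background. The signals of 3 of the 9 genes (Stra8, Rec8 and Sycp3) did not overlap between the WT groups, all with RA higher, where 8.87% of all probe sets did so. In KO 1 of the 9 (Stra8) was higher without overlap, at 3.56% of all probe sets. These counts take the brighter probe set of each gene. The second Dmc1 probe set, left out of them, was also higher with RA without overlap in both lines. For the difference of the RA changes limma called 0 of the 11 and 0.0% of all probe sets, and 1 of the 11 (Stra8) had an unadjusted p under 0.05. With the run as a block it called 0 of the 11 and 0.0488% of all probe sets.

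KO against WT was called for 2 of the 11 in vehicle (Stra8 and Tex19.1), at 4.31% of all probe sets, and for 1 of the 11 in RA (Tex19.1), at 4.94%. With the run as a block there were 3 in vehicle (with the second Dmc1 probe set), at 9.4%, and 3 in RA (Rec8 and Ddx4 lower, Tex19.1 higher), at 9.92%. In vehicle 3 of the 9 genes (Stra8, Dazl and Tex19.1) did not overlap, all higher in KO (11.5% of all probe sets), and in RA Dazl and Tex19.1 were higher (2 of 9, against 9.83%) and Rec8, Dmc1 and Ddx4 lower (3 of 9, against 12.6%) without overlap. Here too the brighter probe set of each gene was counted. The second Dmc1 probe set, left out, was lower in KO without overlap in both treatments. The second Dazl probe set was higher in KO without overlap in vehicle but overlapped in RA. The median KO minus WT difference of the 9 genes was 0.55 in vehicle and -0.20 in RA, against 0.13 and -0.05 over all genes. The median gene was Smc1b both times, below background, so these medians rest on a gene without a measured size.

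Germline lists around these genes held 135 further genes, 83 of them with a mean above background. RA was called higher for 3 of the 135 in WT and for 1 in KO, and lower for none in either line (blocked by run, 4 higher and 5 lower in WT and 3 higher in KO, at 3.35% and 0.495% of all genes). The called genes were Cyp26b1, which codes for an RA-degrading enzyme, Kit, the receptor gene of migrating germ cells, and Elf3, which codes for an ETS family transcription factor. Kit was 1.02 higher in WT (limma adjusted p = 0.0217) and 1.15 higher in KO (limma adjusted p = 0.0279), calls that held in 7 and 5 of the 12 fits that leave out 1 array. Elf3 was 0.91 higher in WT (limma adjusted p = 0.0362, held in 4 of 12). The RA calls of Kit and Elf3 were also lost without the intensity trend, in fits of only the groups compared and with centred arrays. With centred arrays the limma adjusted p was 0.476 for Kit in WT, 0.0821 for Kit in KO and 0.27 for Elf3 in WT. Cyp26b1 rose from below background to a mean of 295 in WT_RA, at least 2.94-fold (limma adjusted p = 0.00294). In KO it was below background on every array and was not called for RA (limma adjusted p = 0.956). The difference of its RA changes between the lines did not pass the test (limma adjusted p = 0.793, and 0.289 with the run as a block). KO_RA was called lower than WT_RA, by at least 2.94-fold (limma adjusted p = 0.0269). That call was lost with 1 added to the signal instead of 16 (limma adjusted p = 0.102) and in several fits that leave out 1 array. For RA limma called 0.824% of all genes in WT and 0.148% in KO.

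Among the further genes of the meiotic machinery, beside the 9 described above, none was called for RA. The lists held 12 cohesin and axis genes, 6 central-element genes, 20 recombination genes, 17 germ cell RNA genes and 20 spermatid genes, of which 7, 3, 10, 9 and 4 had a mean above background. None was called by limma for RA in either line or for the difference between lines, and none when the fit was blocked by run, where 3.35%, 0.495% and 0.0879% of all genes were. At these shares few or no calls would fall in lists of this size, so the count is no result about them. Their median RA differences in WT were 0.17, -0.19, 0.00, -0.02 and 0.12.

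KO against WT was called for 4 of the 135 list genes higher and 7 lower in vehicle, and for 9 higher and 8 lower in RA, while limma called 6.42% and 7.55% of all genes. Blocked by run there were 8 higher and 13 lower in vehicle and 14 higher and 14 lower in RA, at 13.5% and 14.5% of all genes. Of the list genes above background 10 were called in both treatments, 4 higher and 6 lower in KO each time. The higher ones were Rec114, Tdrd12, Rnf17 and L3mbtl2. The lower ones were Dnmt3a, Alpl, Sox17, Elf3, Cxcr4 and Tex13b. Cxcr4, the chemokine receptor gene of migrating germ cells, is named because it completes this count, after its values were seen. Alpl and Sox17 also stand among the stem cell and endoderm markers given below. Of 17 primordial germ cell genes 4 were called lower in each treatment, and 3 were called higher, in RA alone. These 3, also named after their values were seen, were Tfap2c (1.59, limma adjusted p = 0.00158), Prdm14 (1.08, limma adjusted p = 0.00415) and Nanog. Nanog was 0.50 higher (limma adjusted p = 0.0317, held in 7 of 12 fits that leave out 1 array).

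Rec114, which codes for a partner of the enzyme that cuts DNA in meiotic recombination, was dim in WT, with mean signals of 105 ± 46.0 (SD, n = 3) in vehicle and 57.6 ± 16.8 in RA. In KO they were 880 ± 116 in vehicle and 777 ± 77.6 in RA. The KO minus WT difference of Rec114 was 2.96 in vehicle (SE 0.301, limma adjusted p = 1.66e-05). In RA, where WT was below background on every array, the ratio was at least 7.58-fold (limma adjusted p = 2.63e-06). Tdrd12, a tudor domain gene of the piRNA pathway, was 2.19 higher in KO in vehicle (limma adjusted p = 0.00186) and 2.43 higher in RA (limma adjusted p = 0.000565). Both genes kept their calls in all 12 fits that leave out 1 array, and neither changed with RA beyond the test (limma adjusted p = 0.715 and 0.827 in WT).

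Rnf17, a further tudor domain gene of germ cells, was 1.33 higher in KO in vehicle (limma adjusted p = 0.00562) and 0.97 higher in RA (limma adjusted p = 0.0362, held in 4 of 12 fits that leave out 1 array). Both Rnf17 calls were lost without the intensity trend (limma adjusted p = 0.0679 and 0.176), and that in RA with centred arrays (limma adjusted p = 0.0518). Meioc, which germ cells need to stay in meiotic prophase, was 1.21 higher in KO in RA (limma adjusted p = 0.0231, held in 7 of 12). Of the methylation-sensitive germline genes, a group known to be silenced as Tex19.1 is, 9 of 17 had a mean above background. None of the 17 was called higher in KO, 1 was called lower in vehicle (Tex13b) and 2 in RA (Tex13b and Taf7l), where 6.42% and 7.55% of all genes were called in either direction. Hormad1, a gene of the meiotic chromosome axis with a mean below background, came nearest to a higher call (limma adjusted p = 0.0876 in vehicle and 0.0918 in RA). Tex13b was lower by at least 5.65-fold in RA (limma adjusted p = 9.24e-05), and Taf7l fell by 1.51 in RA (limma adjusted p = 0.00572, and 0.0625 with centred arrays). Of 21 repressors of germline genes, Dnmt3a, a DNA methyltransferase gene, was lower in KO by -1.50 in vehicle (limma adjusted p = 9.90e-05) and -1.0 in RA (limma adjusted p = 0.00267). L3mbtl2, a gene of an E2F6 complex, was 0.82 and 0.88 higher (limma adjusted p = 0.00903 and 0.00396). E2f6 itself was lower by -0.62 in vehicle and -0.71 in RA (limma adjusted p = 0.121 and 0.0617). It was called with the run as a block (limma adjusted p = 0.0125 and 0.00372). Blocked by run, 1 of the 21 was called higher and 5 lower in vehicle, at 13.5% of all genes. In RA 2 were called higher and 4 lower, at 14.5%. Kdm5c, a histone demethylase gene, was lower by -0.73 in vehicle (limma adjusted p = 0.0438), a call held in 4 of 12 fits that leave out 1 array. With centred arrays the calls of Dnmt3a in RA (-0.87, adjusted p = 0.113) and of L3mbtl2 (0.60, adjusted p = 0.290) and Kdm5c (-0.95, adjusted p = 0.0667) in vehicle were lost. Without the intensity trend Dnmt3a in RA (adjusted p = 0.0552), L3mbtl2 in vehicle and RA (adjusted p = 0.091 and 0.0619) and Kdm5c in vehicle (adjusted p = 0.184) lost theirs. The L3mbtl2 call in vehicle was also lost with the chip lot as a block (0.66, adjusted p = 0.0715) and without KO_vehicle replicate 2 (0.77, adjusted p = 0.0527).

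**Figure D4:**
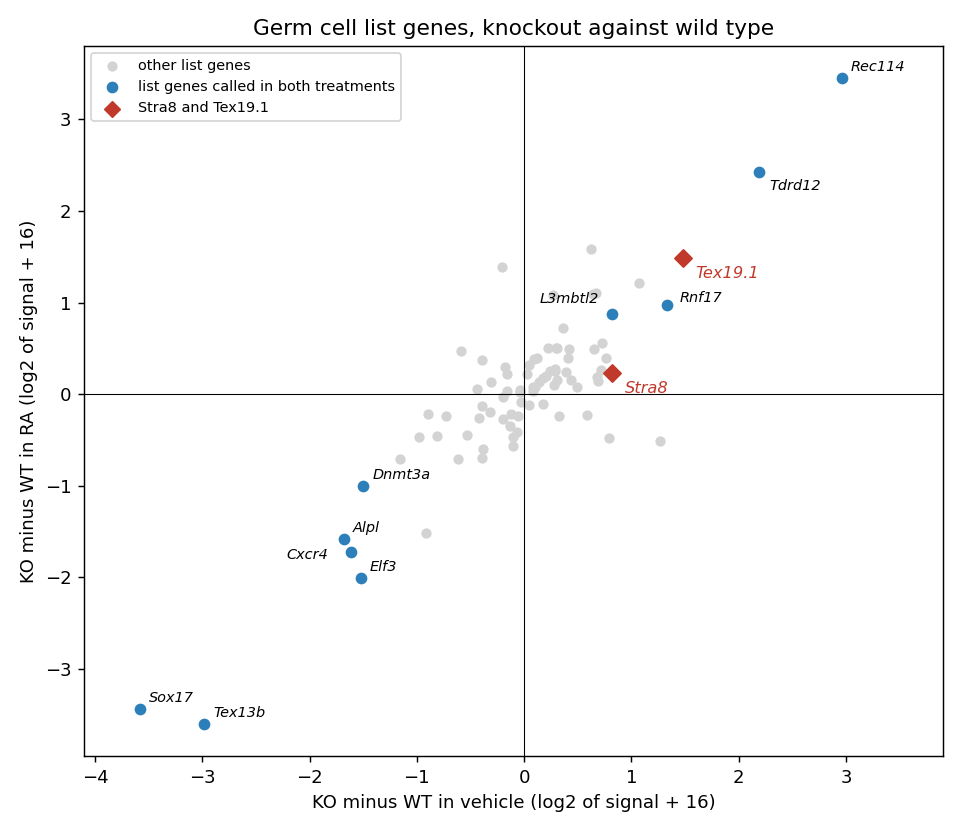
KO minus WT differences of log2(signal + 16) in vehicle (horizontal axis) and in RA (vertical axis) for the germline list genes above background, 1 point per gene, with the 10 genes called in both treatments in blue and Stra8 and Tex19.1 in red. Tex19.1 lies at 1.48 and 1.49 and Stra8 at 0.82 and 0.23. Points are fitted values, and in RA those of Rec114 and Tex13b have no measured size, since WT and KO respectively were below background on every array.

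Markers of other cell states moved with the same comparisons. The summed signal of 13 endoderm markers was 72190 to 76010 in WT_vehicle and 63910 to 82040 in WT_RA, against 9583 to 33030 in KO_vehicle and 11620 to 36880 in KO_RA. Of these 13, 6 were called lower in KO in each treatment and none higher, where limma called 6.42% and 7.55% of all genes. Sox17 was lower by -3.58 in vehicle and -3.44 in RA (limma adjusted p = 0.000397 and 0.000412). In RA it gave -4.35, -2.91 and -3.06 in runs 1, 2 and 3. Dab2 gave -4.93, -2.54 and -2.28 there, and Col4a2 -3.49, -1.53 and -1.48. Without the intensity trend Lama1, Col4a2 and Dab2 lost their calls in both treatments, Sox7 in vehicle, and Gata6 and Foxa2 in RA. Quantile normalization and centred arrays also lost the KO against WT calls in RA of Lama1 (limma adjusted p = 0.0737 and 0.0688) and Gata6 (limma adjusted p = 0.0523 and 0.0545). Some fits that leave out 1 array lost the calls of Lama1 and Col4a2 in both treatments, and of Dab2, Gata6 and Foxa2 in RA. The summed signal of the 10 F9 stem cell markers was 76620 to 81670 in WT_vehicle, 46880 to 53470 in WT_RA, 98180 to 105600 in KO_vehicle and 80210 to 99130 in KO_RA. Stem cell markers were called lower with RA in WT for 5 of 10 and in KO for none, where limma called 0.824% and 0.148% of all genes. For the difference of the RA changes none of the 10 was called. With the run as a block 3 were, where 0.0879% of all genes were. Against WT, 4 stem cell markers were called higher in KO in vehicle and 7 in RA. In KO 1 stem cell marker was called lower in each treatment, Alpl, by -1.68 in vehicle and -1.58 in RA (limma adjusted p = 0.000351 and 0.000428). In these bulk samples fewer cells of a type and less RNA per cell cannot be told apart, and the part of these states in the Stra8, Tex19.1 and Rec114 differences was not tested.

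Markers of testis, somatic gonad and fibroblasts were in part above background. Of 20 spermatid genes 6 to 10 had a group mean above background, of 13 somatic gonad markers 5 to 8, and of 12 fibroblast and muscle markers 3 or 4. The counts of 10 and 8 were those of KO_vehicle, the group with the array that stood apart. The summed spermatid signal was 3827 to 4677 in WT_vehicle, 3726 to 4326 in WT_RA, 5570 to 5814 in KO_vehicle and 4828 to 5543 in KO_RA. Most of each sum came from Odf2 alone, with means of 3225, 2845, 4010 and 4035 in these groups. The sums therefore say little about the other spermatid genes. No spermatid gene passed the test (with the run as a block 1 did, Odf2, 0.50 higher in KO in RA at an adjusted p of 0.0134).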

How the data were processed

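RNA of 12 F9 cell samples was hybridized to Affymetrix mouse expression arrays, 3 per group. The authors deposited MAS5 signal intensities on a linear scale, per the submitters' processing notes; the deposited values show each array scaled to a mean of 500 after trimming 2% at each end. Masking and the MAS5 version are not given in the sources used here. Chip lots and hybridization and scan times came from the deposited experiment files; arrays with 1 hybridization time were taken as a run.

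Of 45101 probe sets, 64 controls were left out. The platform annotation gives 34945 of the rest 1 symbol, 932 several and 9160 none, and a gene is represented by its brightest probe set. Log2(signal + 16) was fitted with limma 3.58.1 in R 4.3.3 (lmFit, eBayes with an intensity trend, 4 groups, 8 residual degrees of freedom, 5 contrasts), after a test of the code on simulated data. No array was dropped from this fit or imputed. Where a group was below background on every array, a fold is given as "at least", from the mean of log2(signal + 16) with dim values set to background.

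The named genes are all members, the genes most like each member that had a group mean above background, and up to 3 genes per list with the smallest adjusted p, called ones first; the text prints a part of these. The lists were meiotic entry, cohesin and chromosome axis, synaptonemal complex centre, meiotic recombination, germ cell RNA and piRNA genes, methylation-sensitive germline genes, primordial germ cell genes, spermatid genes and repressors of germline genes, with markers of F9 stem cells, endoderm, somatic gonad, and fibroblasts and muscle. Some genes stand in several lists. Cxcr4, Tfap2c, Prdm14 and Nanog, and the endoderm markers, are named outside the rule of 3 genes per list, after their values were seen. Members, lists and tests were chosen with earlier results of these data known. Promoter windows are from RefSeq (GRCm38.p6), and all 9 genes matched by symbol. Replicate numbers follow the order of deposition; each number holds the 4 arrays of 1 run, and the run is the block used. Alternatives were other pseudocounts (1 and 64), quantile normalization, centred arrays, only probe sets above background, no trend, only the groups compared, the run or the chip lot as a block, and leaving out each array.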

Additional observations from a re-analysis of the deposited data

How the results depend on the processing

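Against a main count of 1 probe set called for RA in WT, the run as a block gave 2, also with KO_vehicle replicate 3 left out (chosen after seeing the data). Against 2 for KO against WT in vehicle, centred arrays gave 1, no intensity trend 1 and the chip lot as a block 1, and leaving out each array in turn gave 1 to 3. The call lost each time was that of Stra8. Against 1 for KO against WT in RA, the run as a block gave 3, and 3 again with KO_vehicle replicate 3 left out. Of 1200 values of 55 results under alternatives, 9 passed the threshold where the main value did not, 6 no longer passed, and no called value changed sign; 45 uncalled values in 18 results did. Over all probe sets in vehicle, 785 were called higher and 1155 lower in KO, and 130 and 926 with centred arrays. Blocked by run, which matches 1 array of each group, calls over all probe sets went from 211 to 949 (RA in WT), 36 to 136 (RA in KO), 0 to 22 (difference), 1940 to 4235 (KO against WT in vehicle) and 2225 to 4466 (in RA). The cause of these shifts was not tested. Signal over background limits Sycp1, Smc1b, Dazl and Dmc1.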
